A study of Mus musculus with 12 samples.

Results

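The genes described here repair DNA, signal DNA damage or protect chromosome ends, and what was measured is how their introns were spliced in newly made RNA when mouse embryonic stem cells had just lost METTL3. The members are intron clusters, which are groups of introns that share a splice site and so compete for the same split reads. A cluster was a member when its gene name was Slx4, Mbd4, Atm, Atr, Chek1, Chek2, Rif1, Mre11a, Nbn, Blm, Wrn, Terf1, Terf2 or Tinf2. Names of the Brca, Fanc, Rad, Ercc, Xrcc, Msh, Mlh, Pms, Parp, Lig, Pot1 and similar families were also taken, though not all of them. Rad names needed a digit after Rad, and Ercc2 and Ercc3 were left out. By this rule 103 of 7263 tested clusters were members, with 272 of 20437 introns, in 51 of 4273 genes that had a tested cluster. Of 112 member clusters among 8706 in the table, 7 had too few valid samples and 2 had at most 1 sample with enough coverage, so Mlh3, Rad51c, Rad54b and Rad54l have no tested cluster. Atm, Tinf2 and Wrn, which the rule names, have none either.

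The cells were female 129S x Cast embryonic stem cells that carry FKBP12(F36V) at the C-terminus of Mettl3 and a doxycycline-inducible Xist, and all samples share these alleles. FKBP12(F36V) is a tag that the small molecule dTAG-13 recruits to a ubiquitin ligase, so that the fused METTL3 protein is degraded. There were 6 samples treated with dTAG-13 for 3 hours and 6 untreated samples (Ctrl), with 3 replicates of each condition in each of 2 clones, C3 and H5. Each line is a single clone, grown on inactivated mouse fibroblasts as feeders. 4-thiouridine (4sU) was added for 30 min and the labelled RNA was isolated, which enriches for newly made transcripts. The values are fitted PSI (percent spliced in, given as a fraction between 0 and 1): the share of a cluster's split reads that used a given intron, with 1 fitted value per condition over both clones. Sample values are not part of these tables, so a PSI carries no replicate error here, the split-read depth behind it is unknown, and C3 and H5 cannot be compared. DeltaPSI is dTAG-13 minus Ctrl. The p of a cluster is the chi-square tail of a likelihood-ratio test on split reads across the 12 samples. It sets the difference between the conditions against the spread among these samples, which may in part be technical. The samples come from only 2 clones, which were pooled, and no term for the clone is stated. The p is an approximation at 6 samples per condition, and an exact test could not be run without sample values. Over the 3455 clusters with 2 introns, the kind to which the Slx4, Pms2 and Mbd4 clusters below belong, the median test statistic was 1.19 times the chi-square median. With the statistic divided by that ratio p would be 7.2e-05 in place of 1.43e-05 for Slx4, 0.00783 in place of 0.00366 for Pms2 and 0.0209 in place of 0.0116 for Mbd4. Adjusted p-values are Benjamini-Hochberg over all 7263 tested clusters. Of 12 embryonic stem cell markers, 9 had a tested cluster, Nanog, Esrrb and Zfp42 among them, and of 10 feeder fibroblast markers 1 had one, Fn1. That shows only which genes had enough spliced reads, and the part of feeder RNA in any difference was not tested. Mettl3 itself, whose protein is the target, had 2 tested clusters with p of 0.947 and 0.805.

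METTL3 is the catalytic subunit of the complex that writes N6-methyladenosine (m6A) on RNA, much of it while the RNA is being made. Stem cells replicate fast and rely on homologous recombination, crosslink repair and mismatch repair to copy the genome with few errors, while the shelterin proteins TERF1, TERF2, TINF2 and POT1 keep telomeres from being read as breaks. Many of these proteins are large and are encoded by genes with many introns, so that the choice of splice site can alter the reading frame or the start of the protein.

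Of the 103 member clusters, 1 passed an adjusted p under 0.05, in Slx4, which is 0.971% of the members beside 0.702% of all tested clusters. At an adjusted p under 0.2 Slx4 was still the one member called, beside 1.58% of all tested clusters. An unadjusted p of at most 0.05 was reached by 6 member clusters (5.83%), in Slx4, Pms2, Mbd4, Terf2 and, with 2 clusters, Mre11a, and 6.84% of all tested clusters reached it. A deltaPSI of at least 0.1 in either direction occurred in 3 member clusters (2.91%), 2 of Slx4 and 1 of Pms2, and in 4.63% of all tested clusters. The shares past each threshold were therefore near those of the whole table. Differences were small in many clusters: 35 member clusters (34%) had a largest absolute deltaPSI under 0.02, against 47.7% of all tested clusters, and the median was 0.0263 in members and 0.0214 over all. The median p was 0.4999 in members and 0.497 over all.

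**Figure D1:**
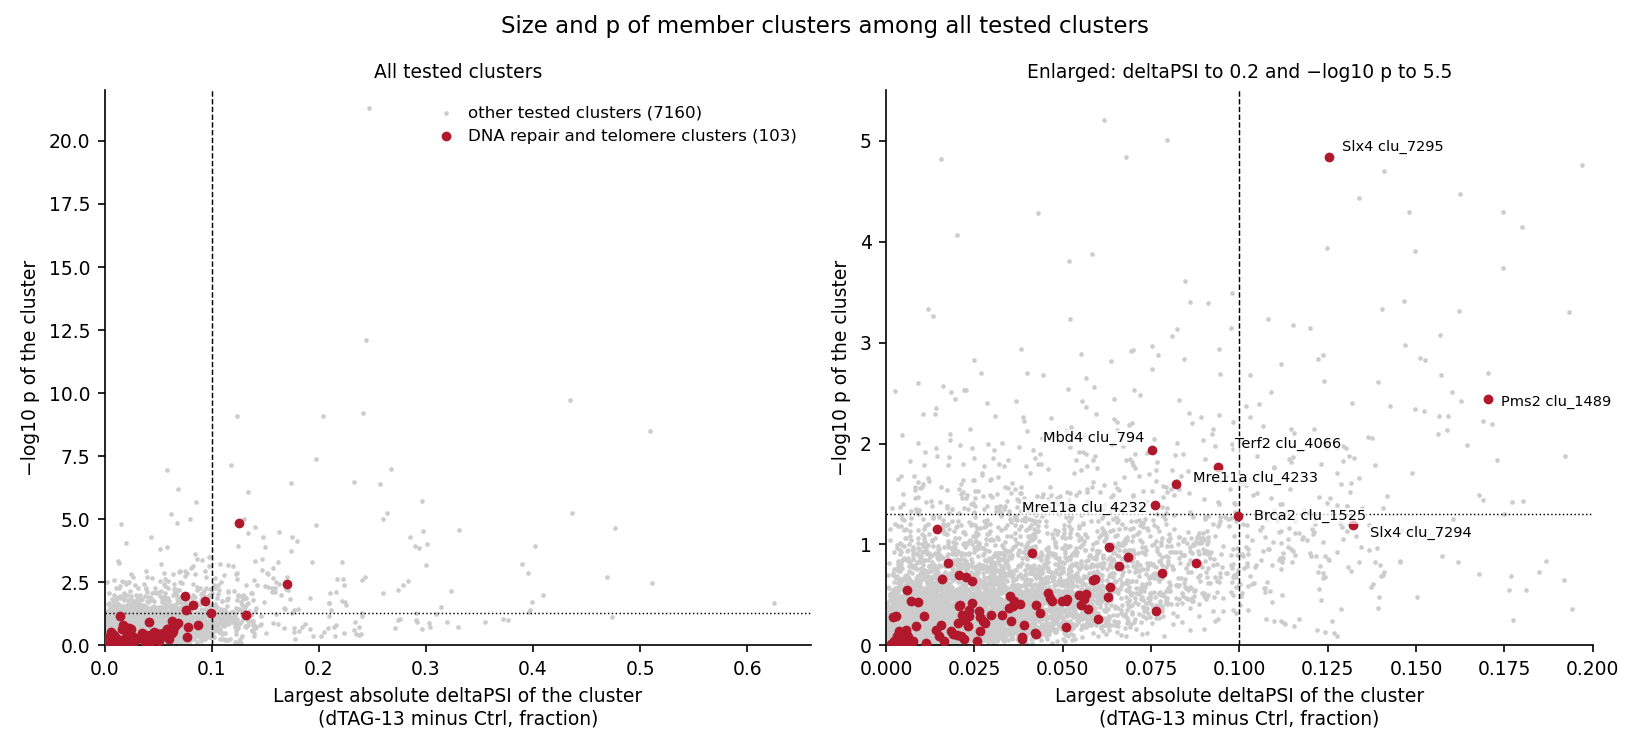
Each point is a tested cluster, with its largest absolute deltaPSI (dTAG-13 minus Ctrl, as a fraction) on the x axis and the −log10 of its p on the y axis. Red points are the 103 member clusters and grey points all other tested clusters. The right panel enlarges the lower left corner, the dashed line marks 0.1 and the dotted line a p of 0.05. Slx4 clu_7295 lies highest of the red points and Pms2 clu_1489 farthest to the right, and most members lie near the origin.

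The splice sites that carry the differences are shown first. In Slx4, Pms2, Mbd4 and Terf2 the introns of 1 cluster share a 3′ splice site and differ in the 5′ splice site, the first bases of the intron. Each sequence below runs 5′ to 3′ along the transcript and holds 12 exon bases and 18 intron bases, with the first 2 intron bases in capitals. They were read from the GRCm38 reference genome, which is C57BL/6J, so that the 129S and Cast alleles of these cells may differ from them. The name gives the length of the intron that starts there.
Slx4, 2136-nt intron, chr16:4001464-4001493, minus strand: catggagaggagGTcagtacaaagtctccg
Slx4, 1607-nt intron, chr16:4000935-4000964, minus strand: gcattcagacagGTaaccaggcaggactca
Pms2, 2597-nt intron, chr5:143925490-143925519, plus strand: caggacaaattgGTgagtcccacggacagc
Pms2, 2025-nt intron, chr5:143926062-143926091, plus strand: aaaagagattagGTactgtgtgttcttacc
Mbd4, 3450-nt intron, chr6:115849050-115849079, minus strand: ctgaagcagcagGTgaagcaaatcgtgagc
Mbd4, 3288-nt intron, chr6:115848888-115848917, minus strand: agacatttcaagGTactcagtgcatgaaaa
Terf2, 4233-nt intron, chr8:107076861-107076890, minus strand: cagaaagatctgGTacttgctaatctggca
Terf2, 4142-nt intron, chr8:107076770-107076799, minus strand: ctcctgctgaggGTgagggaggctcagacc
Terf2, 3964-nt intron, chr8:107076592-107076621, minus strand: gaagaagcccaaGTatgaagaccttctttg
Terf2, 76-nt intron, chr8:107072704-107072733, minus strand: agtgaatcccaaGTatgttctgaaagggtt
All 10 begin with GT. A score for 5′ splice sites was computed from the base frequencies of annotated sites over the last 3 exon bases and the first 6 intron bases, in bits, and its median over 11944 annotated sites was 8.08.

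SLX4 is a scaffold that holds structure-specific nucleases for the repair of interstrand crosslinks and the resolution of recombination intermediates. Its cluster clu_7295 holds 2 introns that end at the same 3′ splice site. The longer one, chr16:3999346-4001481, is not in the GENCODE annotation and had a PSI of 0.144 in dTAG-13 and 0.0185 in Ctrl. The shorter one, chr16:3999346-4000952, is annotated in a protein-coding transcript and had a PSI of 0.856 in dTAG-13 and 0.982 in Ctrl. Use of the longer intron rose by 0.125 in dTAG-13 (chi-square p = 1.43e-05, adjusted p = 0.00401 by the likelihood-ratio test across all clusters). The rarer form in Ctrl thus stayed the rarer form in dTAG-13. The adjusted p lay between 0.00391 and 0.104 over the other adjustments, and the last value, from the Holm adjustment, ends the call.

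The 5′ sites of the 2 Slx4 introns lie 529 nt apart, and these 529 nt (chr16:4000953-4001481) are intron in one form and exon in the other. Relative to the reference transcript of Slx4 (for each gene a protein-coding transcript, by its APPRIS principal tag and then by coding length) they hold 111 noncoding bases and 10 coding bases of its exon 1, which is 320 nt long, and 408 bases of its intron 1. Its start codon, at chr16:4001368-4001370, is among them. Neither intron of the cluster is an intron of this reference transcript. The form with the shorter intron keeps the start codon, and it also keeps the 408 bases of reference intron 1 as exon. The upstream site scored 7.75 bits and the downstream site 7.41 bits, both near the median of annotated sites.

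Of the other 3 Slx4 clusters none reached a p of 0.05. In clu_7294 a cassette exon of 184 nt, exon 3, lies between introns of 3240 nt and 773 nt. The upstream junction had a PSI of 0.364 in dTAG-13 and 0.496 in Ctrl, the downstream junction 0.424 in dTAG-13 and 0.315 in Ctrl, and the junction that skips the exon 0.211 in dTAG-13 and 0.188 in Ctrl (chi-square p = 0.0637, adjusted p = 0.767). The difference therefore lay between the flanking junctions more than in skipping. In clu_7293 an intron known only from the nonsense-mediated decay transcript had a PSI of 0.0899 in dTAG-13 and 0.156 in Ctrl (chi-square p = 0.164). In clu_7296, with 3 alternative first sites, the largest difference was 0.0327 (chi-square p = 0.505). The median over the 4 Slx4 clusters was 0.0957.

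**Figure D2:**
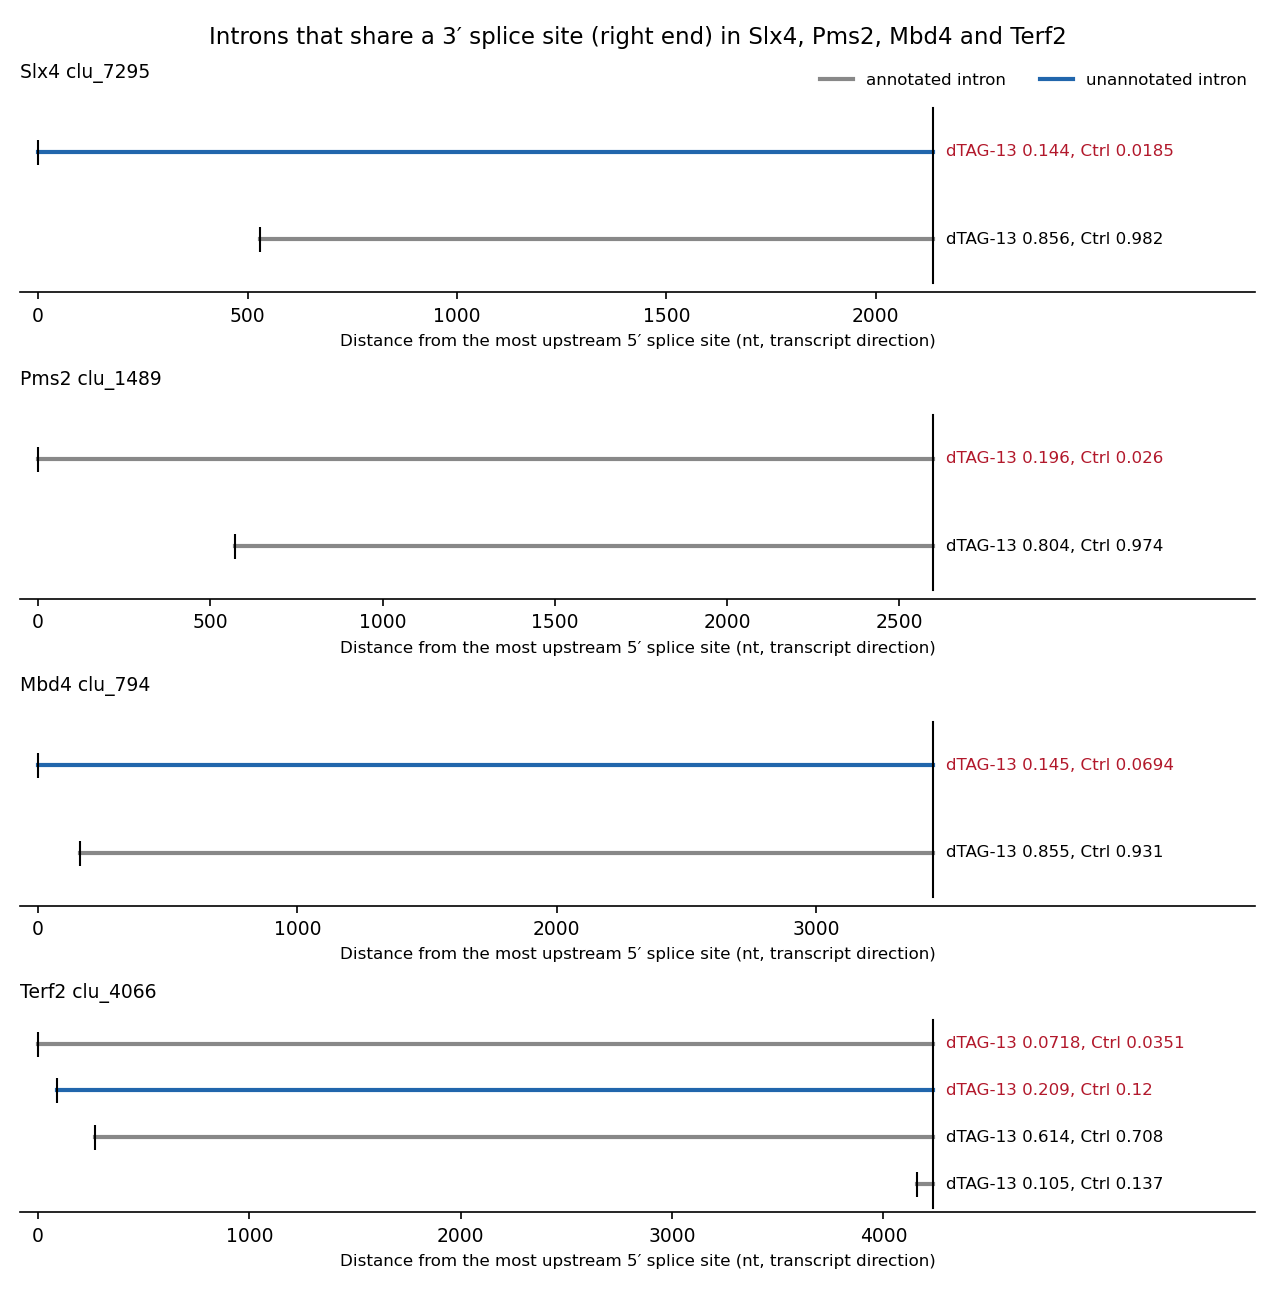
Introns of 1 cluster each in Slx4, Pms2, Mbd4 and Terf2, drawn to scale along the transcript, with the distance in nt from the most upstream 5′ splice site on the x axis. Each bar is an intron that ends at the shared 3′ splice site on the right, blue where it is unannotated, and the text gives its fitted PSI in each condition, in red where it was higher in dTAG-13. In Slx4, Pms2 and Mbd4 the longer intron was the one whose PSI was higher in dTAG-13 than in Ctrl, and in Terf2 the 2 longest introns were.

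PMS2 is the endonuclease subunit of MutL alpha, which cuts the mispaired strand in mismatch repair. Its cluster clu_1489 holds 2 introns with 5′ sites 572 nt apart. The longer intron, chr5:143925502-143928098, starts inside coding exon 11 (853 nt) and is annotated only in a processed transcript. It had a PSI of 0.196 in dTAG-13 and 0.0260 in Ctrl. Intron 11, chr5:143926074-143928098, had a PSI of 0.804 in dTAG-13 and 0.974 in Ctrl. This deltaPSI of 0.170 is the largest of all member clusters, but the cluster did not pass the adjusted threshold (chi-square p = 0.00366, adjusted p = 0.221). All 572 bases between the sites are coding, and their number is not a multiple of 3. The upstream site scored 8.21 bits and the main site 3.76 bits, below which only 3.72% of annotated 5′ sites lie. The other 2 Pms2 clusters had largest differences of 0.0386 (chi-square p = 0.82) and 0.0267 (chi-square p = 0.717).

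MBD4 is a glycosylase that removes thymine or uracil opposite guanine at CpG sites, the first step of base excision repair there. In clu_794 an unannotated intron of 3450 nt, chr6:115845618-115849067, had a PSI of 0.145 in dTAG-13 and 0.0694 in Ctrl. Intron 3 (3288 nt), chr6:115845618-115848905, had a PSI of 0.855 in dTAG-13 and 0.931 in Ctrl (chi-square p = 0.0116, adjusted p = 0.397). The sites are 162 nt apart inside coding exon 3 (827 nt), a multiple of 3, and scored 7.27 bits for the upstream and 4.90 bits for the annotated site. In clu_795, at the first intron, the annotated intron of the reference transcript had a PSI of 0.747 in dTAG-13 and 0.816 in Ctrl, and the intron of a decay transcript had 0.253 in dTAG-13 and 0.184 in Ctrl (chi-square p = 0.134). The first of these starts with GC in place of GT, the rarer class of 5′ sites, and the other with GT. They are shown because the pair differs in that class.
Mbd4, 2297-nt intron, chr6:115853119-115853148, minus strand: ttgggatcgctgGCaagttattaaacctct
Mbd4, 1845-nt intron, chr6:115852667-115852696, minus strand: gatgagtctctgGTacgtcgtgggttcaaa

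TERF2 binds double-stranded telomere repeats and keeps chromosome ends from fusing. In clu_4066 its 4 introns share a 3′ site. Intron 7 (3964 nt) had a PSI of 0.614 in dTAG-13 and 0.708 in Ctrl. The unannotated 4142-nt intron had 0.209 in dTAG-13 and 0.120 in Ctrl, and the 4233-nt intron of a decay transcript had 0.0718 in dTAG-13 and 0.0351 in Ctrl. Both of these start inside the 387-nt exon 7, upstream of its usual end. The short 76-nt intron of another protein-coding transcript had 0.105 in dTAG-13 and 0.137 in Ctrl (chi-square p = 0.0171, adjusted p = 0.476 for the cluster). The site of the unannotated intron scored 7.91 bits, that of the main intron 5.80 bits, that of the decay intron 4.47 bits and that of the short intron 7.38 bits. With annotated introns alone the difference of the main intron is -0.0281 in place of -0.0939.

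**Figure D3:**
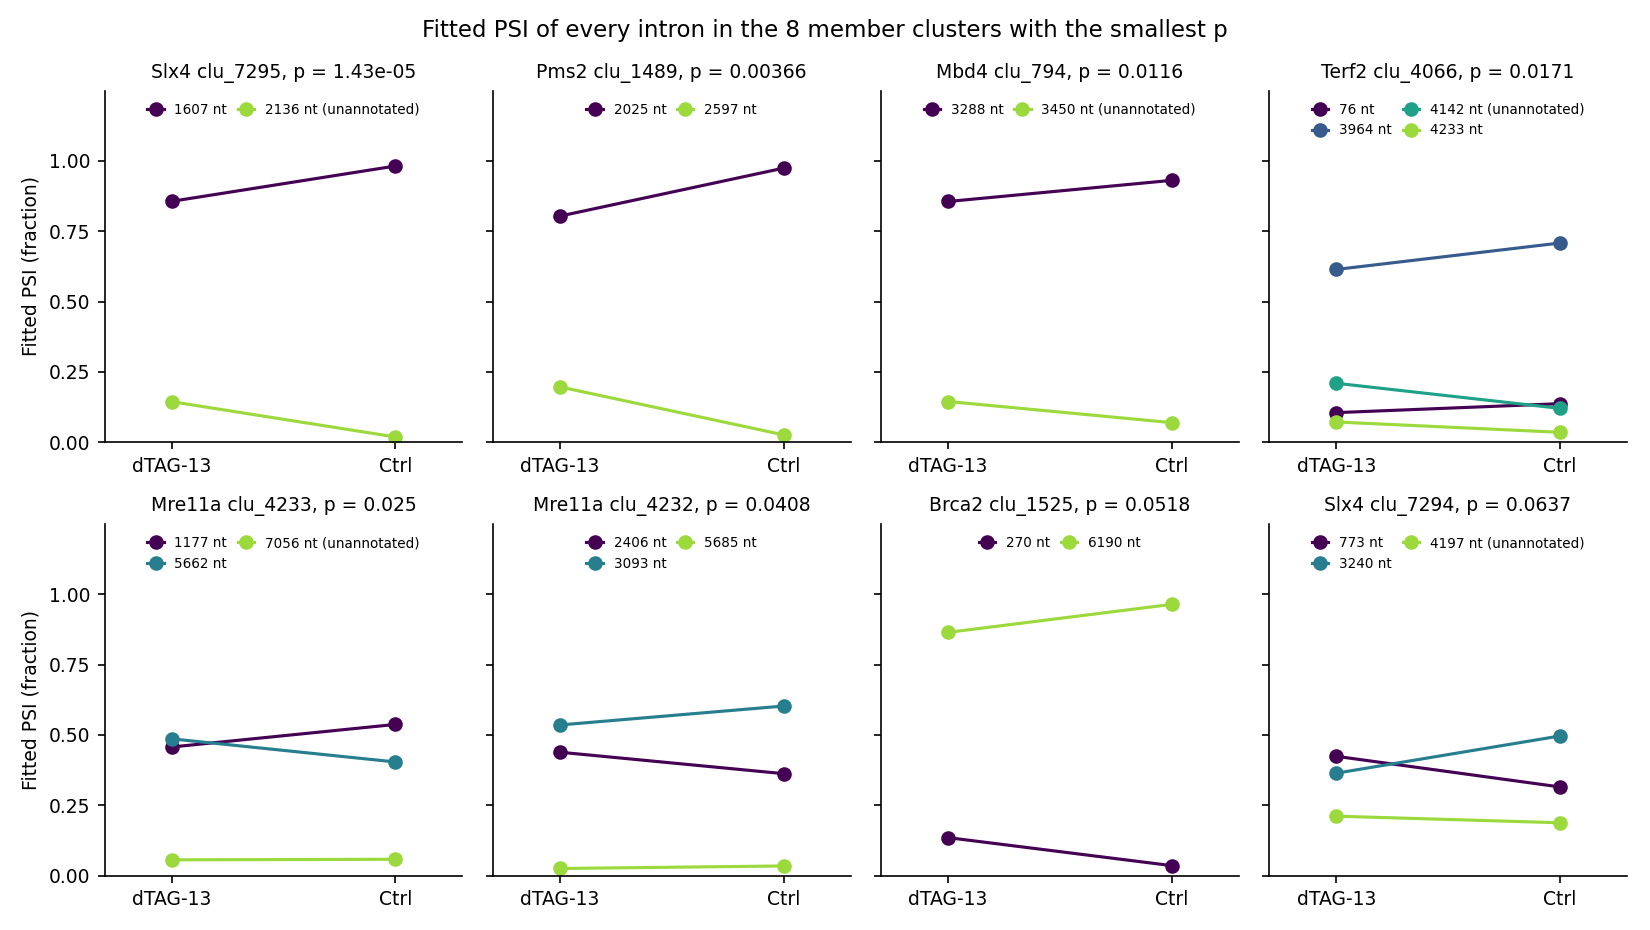
Fitted PSI (y axis, fraction) of every intron in dTAG-13 and Ctrl for the 8 member clusters with the smallest p, 1 panel each. Lines join the 2 fitted values of an intron, named by its length, and there are no error bars because the tables hold 1 value per condition. In Slx4 clu_7295, Pms2, Mbd4 and Brca2 the minor intron had a higher PSI in dTAG-13 than in Ctrl. In the Mre11a clusters the flanking junctions of an exon differed in opposite directions.

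Among member clusters with exactly 2 alternative 5′ sites, the 3 at a p of at most 0.05 (Slx4, Pms2 and Mbd4) all had the longer intron, which uses the upstream site, higher in dTAG-13. Over all tested clusters of this kind and p it was 68 of 123 (55.3%). Without a threshold on p the longer intron was higher in 13 of 25 member clusters (52%), against 48.3% over all. Of the 23 member clusters with 2 alternative 3′ sites none reached a p of 0.05 by the likelihood-ratio test, beside 6.6% over all, and the longer intron was higher in 14 (60.9%, against 48.8% over all). In the same 3 clusters the site whose PSI was higher in dTAG-13 than in Ctrl was also the one with the higher score. That held in 60 of 117 scored clusters at that p over all (51.3%). Without a threshold on p it held in 9 of the 21 member clusters that could be scored, and over all in 764 of 1544 (49.5%). The 3 clusters were picked out by their p, so the counts describe them and test nothing.

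The sequence GGACT, a frequent form of the m6A motif, was searched on the transcript strand of the parts between alternative sites. The 529-nt part of Slx4 and the 572-nt part of Pms2 each hold it once, and 44% and 45.2% of parts of like length over all clusters hold it. The 162-nt part of Mbd4 and the 178-nt and 91-nt parts of Terf2 hold none, and 14%, 15.6% and 8.99% of like parts hold it. The third Terf2 part, the 3888 nt before the 76-nt intron, holds it 3 times, and 95.4% of like parts hold it. A match gives these letters only, and m6A itself was not measured in these libraries.

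BRCA2 acts in homologous recombination at resected breaks. Its clu_1525 lay just outside both thresholds. Intron 2, chr5:150523280-150529469, had a PSI of 0.865 in dTAG-13 and 0.964 in Ctrl, and a 270-nt intron of the processed transcript had 0.135 in dTAG-13 and 0.0357 in Ctrl (deltaPSI 0.0995, chi-square p = 0.0518, adjusted p = 0.735). Here the shorter intron was the one whose PSI was higher in dTAG-13 than in Ctrl, unlike in Slx4, Pms2 and Mbd4. The 5920 nt between the sites hold GGACT 9 times, and 11.2% of like parts hold at least as many. The other 2 Brca2 clusters differed by 0.0281 (chi-square p = 0.599) and 0.0266 (chi-square p = 0.524). BRCA1, which acts upstream in the same pathway, had 1 cluster at its first intron, an unannotated exon of 73 nt with an upstream junction of 0.107 in dTAG-13 and 0.0860 in Ctrl (chi-square p = 0.815). The 16 homologous recombination clusters, in 9 genes, had a median largest difference of 0.0237, and none had a p of at most 0.05, beside 6.84% of all tested clusters.

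MRE11A is the nuclease of the MRE11-RAD50-NBN complex that senses double-strand breaks and starts their resection. Its 2 clusters at a p of at most 0.05 are both cassette exons, and in both the flanking junctions differed more than the skipping junction did. At exon 15 (217 nt, clu_4233) the upstream junction had a PSI of 0.486 in dTAG-13 and 0.404 in Ctrl. The downstream junction had 0.457 in dTAG-13 and 0.538 in Ctrl, and skipping was 0.0563 in dTAG-13 and 0.0583 in Ctrl (chi-square p = 0.025, adjusted p = 0.577). At exon 8 (186 nt, clu_4232) the order was turned. The upstream junction had 0.536 in dTAG-13 and 0.603 in Ctrl, the downstream junction 0.439 in dTAG-13 and 0.363 in Ctrl, and skipping 0.0255 in dTAG-13 and 0.0345 in Ctrl (chi-square p = 0.0408, adjusted p = 0.687). The upstream share of the inclusion junctions was therefore 0.515 in dTAG-13 and 0.429 in Ctrl at exon 15, and 0.550 in dTAG-13 and 0.624 in Ctrl at exon 8. The other 2 Mre11a clusters had p of 0.324 and 0.798.

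Cassette exons were the most frequent event of the members, with 43 of 103 clusters (41.7%, against 33.3% over all). The inclusion of the exon, computed from the mean of the flanking junctions, had a median of 0.893 in dTAG-13 and 0.890 in Ctrl. It was higher in dTAG-13 in 21 of the 43, and the largest difference was 0.0869. The upstream share had a median of 0.468 in dTAG-13 and 0.459 in Ctrl, with a largest difference of 0.150, in Slx4 clu_7294. Cluster by cluster, the upstream share was higher in dTAG-13 in 18 of the 43, with a median difference of -0.00391. Over all 2415 cassette clusters it was higher in 1259, with a median difference of 0.00146. Inclusion and upstream share differed by a median absolute 0.0169 and 0.0208, near the 0.0162 and 0.0216 over all 2415 cassette clusters.

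**Figure D4:**
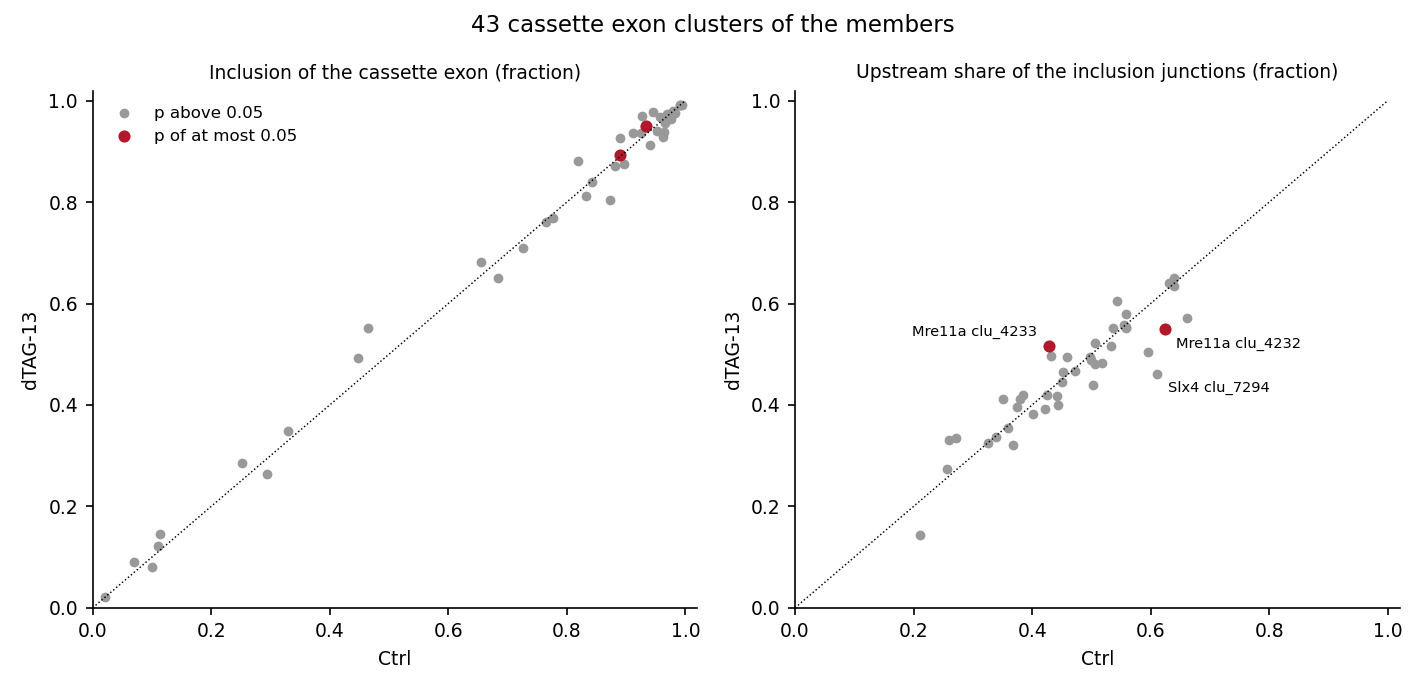
The 43 member clusters with a cassette exon, 1 point each, with the value in dTAG-13 on the y axis and the value in Ctrl on the x axis (fractions). The left panel gives the inclusion of the exon and the right panel the share of the upstream junction among the 2 inclusion junctions. Red points have a p of at most 0.05 and the dotted line marks equal values. Both Mre11a clusters lie on the line at left and off it, on opposite sides, at right.

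The checkpoint genes signal damage to the cell cycle. RAD1 is part of the 9-1-1 clamp that is loaded at stalled forks. At its first intron (clu_7624) the annotated 188-nt intron had a PSI of 0.713 in dTAG-13 and 0.626 in Ctrl, and unannotated introns of 171 nt and 426 nt had 0.213 and 0.0739 in dTAG-13 against 0.286 and 0.0885 in Ctrl (chi-square p = 0.152). RAD18 is the ligase that ubiquitinates PCNA for lesion bypass. A 63-nt exon (clu_766) was skipped at a PSI of 0.289 in dTAG-13 and 0.366 in Ctrl (chi-square p = 0.456), and the other Rad18 cluster differed by 0.0347 (chi-square p = 0.431). ATR, the kinase activated by single-stranded DNA, had a cassette exon of 160 nt whose upstream junction was 0.450 in dTAG-13 and 0.489 in Ctrl (chi-square p = 0.63). Of its effector kinases, CHEK1 had 1 cluster, with a leading junction of 0.4996 in dTAG-13 and 0.497 in Ctrl (chi-square p = 0.994), and CHEK2 had 1 at its first intron. There an unannotated 1170-nt intron was at 0.0913 in dTAG-13 and 0.0402 in Ctrl (chi-square p = 0.35). Of 15 clusters in 8 checkpoint and sensing genes, 2 of Mre11a and no other had a p of at most 0.05 (6.84% of all tested clusters had one), and the median largest difference was 0.0347.

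**Figure D5:**
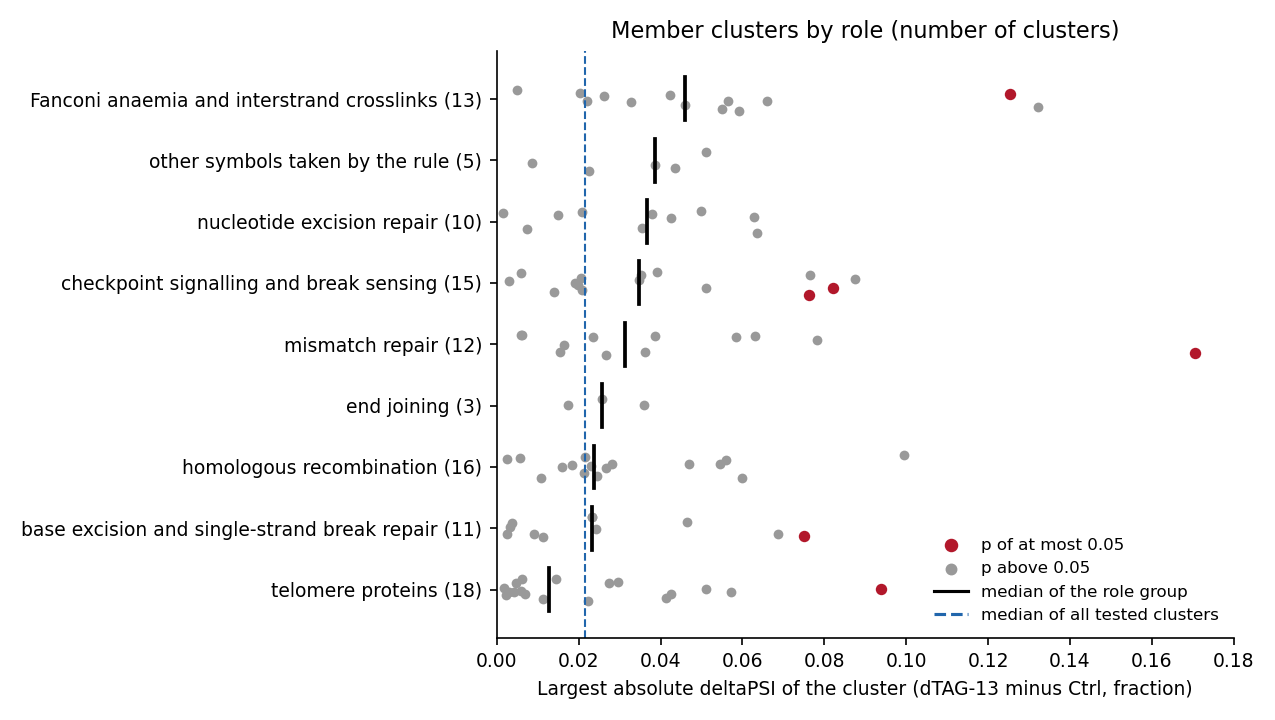
The 103 member clusters by the role of their gene, with the largest absolute deltaPSI (dTAG-13 minus Ctrl, fraction) along the x axis and cluster numbers in brackets. Each point is a cluster, red at a p of at most 0.05, the black bar is the median of the role and the dashed line the median of all tested clusters, 0.0214. Telomere proteins have a median of 0.0128, which is 0.0414 without the 11 clusters of Rif1, and the Fanconi anaemia and crosslink genes one of 0.0459, which is 0.0422 without Slx4.

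By role, the Fanconi anaemia and crosslink genes had a median difference of 0.0459 over 13 clusters in 6 genes, of which Slx4 gave 4 and Fancm 5. FANCM, the translocase that remodels stalled forks, had largest differences between 0.00494 and 0.0593 and p between 0.222 and 0.884. The 12 mismatch repair clusters had a median of 0.0314. Nucleotide excision repair had 10 clusters, a median of 0.0367 and none at a p of at most 0.05 (6.84% over all), and ERCC6, which rescues polymerases stalled at lesions, had its largest difference at a pair of 3′ sites 4 nt apart before the start codon. The annotated one was at 0.430 in dTAG-13 and 0.366 in Ctrl (chi-square p = 0.265). The 11 clusters of base excision and single-strand break repair had a median of 0.0233.

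End joining had 3 clusters, none at a p of at most 0.05 (6.84% over all). XRCC5, the KU80 subunit that caps broken ends, had its 24732-nt intron 16 at 0.946 in dTAG-13 and 0.963 in Ctrl (chi-square p = 0.154). TRP53BP1, which favours end joining over resection, had an exon of 150 nt that was skipped at 0.0633 in dTAG-13 and 0.0992 in Ctrl (chi-square p = 0.411), and its other cluster differed by 0.0258 (chi-square p = 0.91). The rule also takes Ercc6l2, Parpbp and Rad21 by name. In Ercc6l2 an unannotated junction that skips exon 3 was at 0.0151 in dTAG-13 and 0.0376 in Ctrl (chi-square p = 0.212), and its other cluster differed by 0.0436 (chi-square p = 0.478).

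Telomere proteins had a median difference of 0.0128 over 18 clusters in 5 genes, and of 0.0414 over the 7 clusters other than those of Rif1. RIF1, which acts with TRP53BP1 at breaks and sets replication timing, gave 11 of these clusters. Their largest differences ran between 0.00187 and 0.0510 with a median of 0.00586, and the smallest p was 0.0699. At that cluster, clu_2692, the junction upstream of a 52-nt exon was at 0.464 in dTAG-13 and 0.451 in Ctrl, and the downstream junction at 0.532 in dTAG-13 and 0.546 in Ctrl. TERF1, the second protein that binds double-stranded telomere repeats, had 3 clusters with largest differences of 0.00696, 0.0273 and 0.0221 and p of 0.362, 0.574 and 0.565. The 2 single-strand telomere proteins POT1A and POT1B had 1 cluster each, with differences of 0.0573 (chi-square p = 0.438) and 0.0425 (chi-square p = 0.764), and were picked for mention after their values were seen.

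Noticed in the values was a set of tandem 3′ splice sites that lie 3 nt apart, in 6 member clusters. Of these, 5 are shown because each choice adds or removes 3 bases of the transcript. Each line holds 27 bases with the AG of both sites in capitals, and the genes were chosen after their values were seen.
Msh3, chr13:92235723-92235749, minus strand: tcatttgtttgtttccAGcAGgactcg
Terf2, chr8:107076991-107077017, minus strand: ctgtgtgtgctttctcAGcAGacagcc
Lig3, chr11:82787610-82787636, plus strand: tgttgtttctctcaccAGcAGcaaaac
Rad51ap1, chr6:126927682-126927708, minus strand: tggtgttcgtgtctccAGaAGatttgg
Parpbp, chr10:88093722-88093748, minus strand: ttcttctttttttgttAGcAGatgtgg
In Msh3, the mismatch sensor of larger loops, the shorter intron had a PSI of 0.775 in dTAG-13 and 0.712 in Ctrl (chi-square p = 0.105). In Terf2 the shorter intron had 0.646 in dTAG-13 and 0.688 in Ctrl (chi-square p = 0.12), so that the first AG was used less in dTAG-13 there and more in Msh3. Lig3, Rad51ap1 and Parpbp had p of 0.444, 0.715 and 0.36. Of the 6 clusters none reached a p of 0.05 by the likelihood-ratio test, and 18 of 501 did over all tested clusters with sites 3 nt apart. Their median largest difference was 0.0397, against 0.0177 over those 501.

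Introns outside the annotation made up 62 of the 272 member introns, and 77.2% were annotated, against 74.7% over all. The PSI of the unannotated introns was higher in dTAG-13 for 37 (59.7%), against 51.9% of 5176 over all, with a median deltaPSI of 0.00250 in members and 0.000271 over all. The introns known only from nonsense-mediated decay transcripts were higher in dTAG-13 in 10 of 17 (58.8%), against 54.5% of 793 over all. Their median deltaPSI was 0.00208 in members and 0.00121 over all. The median PSI of the 17 was lower in dTAG-13 (0.0899) than in Ctrl (0.121), so the count shows no general rise. Introns of 1 cluster share a total, so these counts are not independent.

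Of 133 other genes of DNA repair, replication stress and telomere upkeep that the rule does not take, 65 had a tested cluster, 122 clusters in all. Of these, 1 passed the adjusted threshold, which 0.702% of all tested clusters passed. A p of at most 0.05 was reached by 8 (6.56%), in 7 genes, near the 6.84% of all tested clusters. The median largest difference of the 122 clusters was 0.0223. The call was in Tti2, which encodes a chaperone component for ATM and ATR family kinases. There the annotated 2009-nt intron, 1 of 2 that differ in the 5′ site, fell to 0.858 in dTAG-13, against 0.956 in Ctrl (chi-square p = 0.000323, adjusted p = 0.046 by the likelihood-ratio test). Its adjusted p lay between 0.0458 and 1 over the other adjustments, and it was 0.121 with the statistic divided by the ratio of 2-intron clusters, which ends the call. Helq, a helicase of fork repair, had a 3043-nt intron at 0.344 in dTAG-13 and 0.473 in Ctrl (chi-square p = 0.0148), and Mms22l, which acts in recombination at stalled forks, a 2232-nt intron at 0.952 in dTAG-13 and 0.882 in Ctrl (chi-square p = 0.0163). Smc5, of the SMC5/6 complex, had 2 clusters, with leading introns at 0.966 and 0.601 in dTAG-13 against 0.922 and 0.494 in Ctrl (chi-square p = 0.0315 and 0.0481). Atrx, Rfc1 and Topbp1 had p of 0.0268, 0.0451 and 0.0491 with differences of 0.0156, -0.00926 and 0.0179.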

How the data were processed

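Nascent 4sU RNA of 12 samples was sequenced by the authors from stranded total RNA libraries. Per the labels and the study's methods, reads were aligned to mm10 with STAR 2.5.2b and split reads were grouped into intron clusters with LeafCutter, with at least 30 split reads per cluster, and dTAG-13 was compared with Ctrl with both clones pooled. For every intron the authors deposited 1 fitted PSI for each condition, a fraction, and for each cluster a log-likelihood ratio, used here as a score with its degrees of freedom. Columns with the authors' own fold effects, deltaPSI values, p-values and adjusted p-values were not used.

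DeltaPSI was computed as dTAG-13 minus Ctrl, p as the chi-square tail of 2 times the score, and adjusted p by Benjamini-Hochberg over 7263 clusters. The adjustment and the sorting of clusters into event classes were tested on simulated data. The simulated statistics followed chi-square distributions exactly, so the simulation could not show how well that approximation holds for the real scores. The score rests on the authors' fit, so no exact test or check between samples could be run. Coordinates are 1-based on mm10 and were compared with GRCm38. Annotation was GENCODE vM21, and the score of 5′ splice sites used a pseudocount of 0.5. Software was Python 3.11.15, numpy 2.4.6, scipy 1.17.1, pandas 2.3.3 and matplotlib 3.10.9.

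Named genes are members with a p of at most 0.05, those of the 12 clusters with the largest deltaPSI, the gene with the smallest p in each role, a short list of well-known genes (Brca1, Brca2, Atr, Chek1, Chek2, Trp53bp1, Rif1, Terf1 and Terf2 had clusters), and other repair genes with a p of at most 0.05. The members and lists were chosen with earlier results of these data known. Some results that the rule names are not reported here.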

Additional observations from a re-analysis of the deposited data

How the results depend on the processing

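By the chi-square p, Slx4 remained the one member call at an adjusted p under 0.05 with Benjamini-Yekutieli adjustment (adjusted p = 0.0379). By the same p it was the one call at an adjusted p under 0.2, and without the clusters that carry more than 1 gene name (0.00391). With divided scores it remained the call as well (adjusted p = 0.0174 by the chi-square p). In that setting scores were divided by their median over expectation, for each number of degrees of freedom where this ratio exceeded 1. For 2-intron clusters it was 1.19. With Holm adjustment there were 0 member calls by the chi-square p (adjusted p = 0.104 in Slx4), beside 6 clusters at an unadjusted p of at most 0.05 by the likelihood-ratio test. Over all tested clusters the calls were 51 in the main setting, 21 with Holm adjustment and 29 with Benjamini-Yekutieli adjustment. They were 115 at an adjusted p under 0.2, 48 with divided scores and 50 without the clusters that carry more than 1 gene name. At a size threshold of 0.05 in place of 0.1 there were 27 member clusters (26.2%, against 19.8% of all tested clusters), and at 0.2 there were 0 (against 1.14%). Of 23 leading introns of named genes, all 23 stayed within 1.5-fold of their deltaPSI when introns under a PSI of 0.02 in both conditions were left out, with a largest change of 0.000983. With annotated introns alone 13 of 14 stayed within 1.5-fold, with a largest change of 0.0173 in Slx4 clu_7294, Terf2 clu_4066 was at -0.0281, and 9 gave no value, Slx4 clu_7295 and Mbd4 clu_794 among them. No direction reversed. Chosen after seeing the data, leaving out Rif1 gave telomere proteins a median of 0.0414 in place of 0.0128, and leaving out Slx4 gave the crosslink genes 0.0422 in place of 0.0459. No paired analysis was possible because both clones are pooled and no value per sample is held, and leaving out single replicates and fits within C3 or H5 could not be run for the same reason. Depth limits the introns of low PSI most, and it is unknown here.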
